A study of Homo sapiens with 18 samples.

Results

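The genes described here are 41 genes of glycolysis and of the cellular response to low oxygen, chosen by symbol from a fixed list, out of 28395 genes in the deposited RNA-seq tables. All 41 were present in both tables, all 41 passed the filter on low values in each comparison, and each had at least 1 ATAC-seq region within 5 kb of the gene. The list was divided into 6 role groups: 9 enzymes of sugar phosphorylation and splitting, 8 enzymes of lower glycolysis and lactate, 4 glucose and lactate transporters, 5 regulatory kinases, 6 HIF subunits and regulators, and 9 other hypoxia-response genes. The series compared 3 lines of K562, a human erythroleukemia cell line, with 3 RNA-seq and 3 ATAC-seq libraries each. V-K562 cells, the controls, had received the empty expression vector. B-K562 cells were made to express wild-type BASP1 (wtBASP1), and the G-K562 line was made with BASP1-G2A, in which the glycine that receives the N-terminal myristoyl group is replaced by alanine. BASP1 is a transcriptional cofactor of the Wilms' tumour protein WT1. All 3 lines were stable transfectants that had gone through drug selection, so each line is a single derived population, and a difference between lines includes whatever else differs between these populations. The replicates were biological preparations of each line by the study's methods, so p-values measure the spread between preparations of 1 line and not between independently derived lines.

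Glycolysis splits glucose into pyruvate, and in proliferating cells much of the pyruvate is reduced to lactate by lactate dehydrogenase and exported. Many of its enzymes are encoded by genes that hypoxia-inducible factor (HIF) activates. HIF is a dimer of an oxygen-regulated alpha subunit (HIF1A or EPAS1, also called HIF-2 alpha) with ARNT. At normal oxygen, prolyl hydroxylases of the EGLN family mark the alpha subunit and the VHL ubiquitin ligase removes it, so alpha subunit activity is set mainly at the protein level and RNA does not report it. HIF also activates genes outside glycolysis, among them the mitophagy receptors BNIP3 and BNIP3L and the collagen prolyl hydroxylases P4HA1 and P4HA2.

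The RNA-seq values are the authors' normalized counts: reads counted per gene, divided by a size factor for the library and rounded. Library totals lay between 32074895 and 33229588, and because they were scaled they do not show depth. BASP1 was at 7, 5 and 7 in V-K562 cells, 6965, 6730 and 6294 in B-K562 cells and 9323, 12538 and 8124 in G-K562 cells, as the labels state. Values are printed on a common scale, for which those of B-K562 were multiplied by 1.02, the ratio between the V-K562 columns of the separately normalized tables. Each BASP1 line was tested against V-K562 within its own table. Markers of erythroid cells, which K562 cells partly resemble, differed between the lines as well: their values summed over 10 genes to between 98071 and 107900 in the V-K562 libraries, between 154854 and 157769 in the B-K562 libraries and between 59627 and 66558 in the G-K562 libraries. Of the 10, 8 rose and 1 fell in B-K562 cells, while 2 rose and 8 fell in the G-K562 line. None of the 10 was below a value of 10 in every library, and the part of this difference in the results below was not tested. The 5 lymphoid markers, 1 of them at 0 throughout, summed to at most 696 and the epithelial, endothelial and fibroblast markers to at most 2940 in any library. In bulk samples, fewer cells expressing a gene and less RNA per cell cannot be told apart.

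Most members were lower in each BASP1 line. Against V-K562 cells and at an adjusted p of at most 0.05, 28 of the 41 were lower in B-K562 cells and 4 were higher, where 37.2% of the 14958 genes tested were lower and 38.6% higher. At a change of at least 2-fold, 15 members were lower and 0 higher in B-K562 cells, against 14.1% and 6.46% of all genes. In G-K562 cells 30 members were lower and 5 higher, where 33.3% of the 15271 genes tested were lower and 33.5% higher. At least 2-fold, 17 members were lower and 0 higher in G-K562 cells, against 10.3% and 8.81% of all genes. The median log2 fold change of the members was -0.78 for B-K562 and -0.63 for G-K562, beside medians of 0.01 and 0.00 over all genes tested. These comparisons use the same V-K562 libraries.

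**Figure D1:**
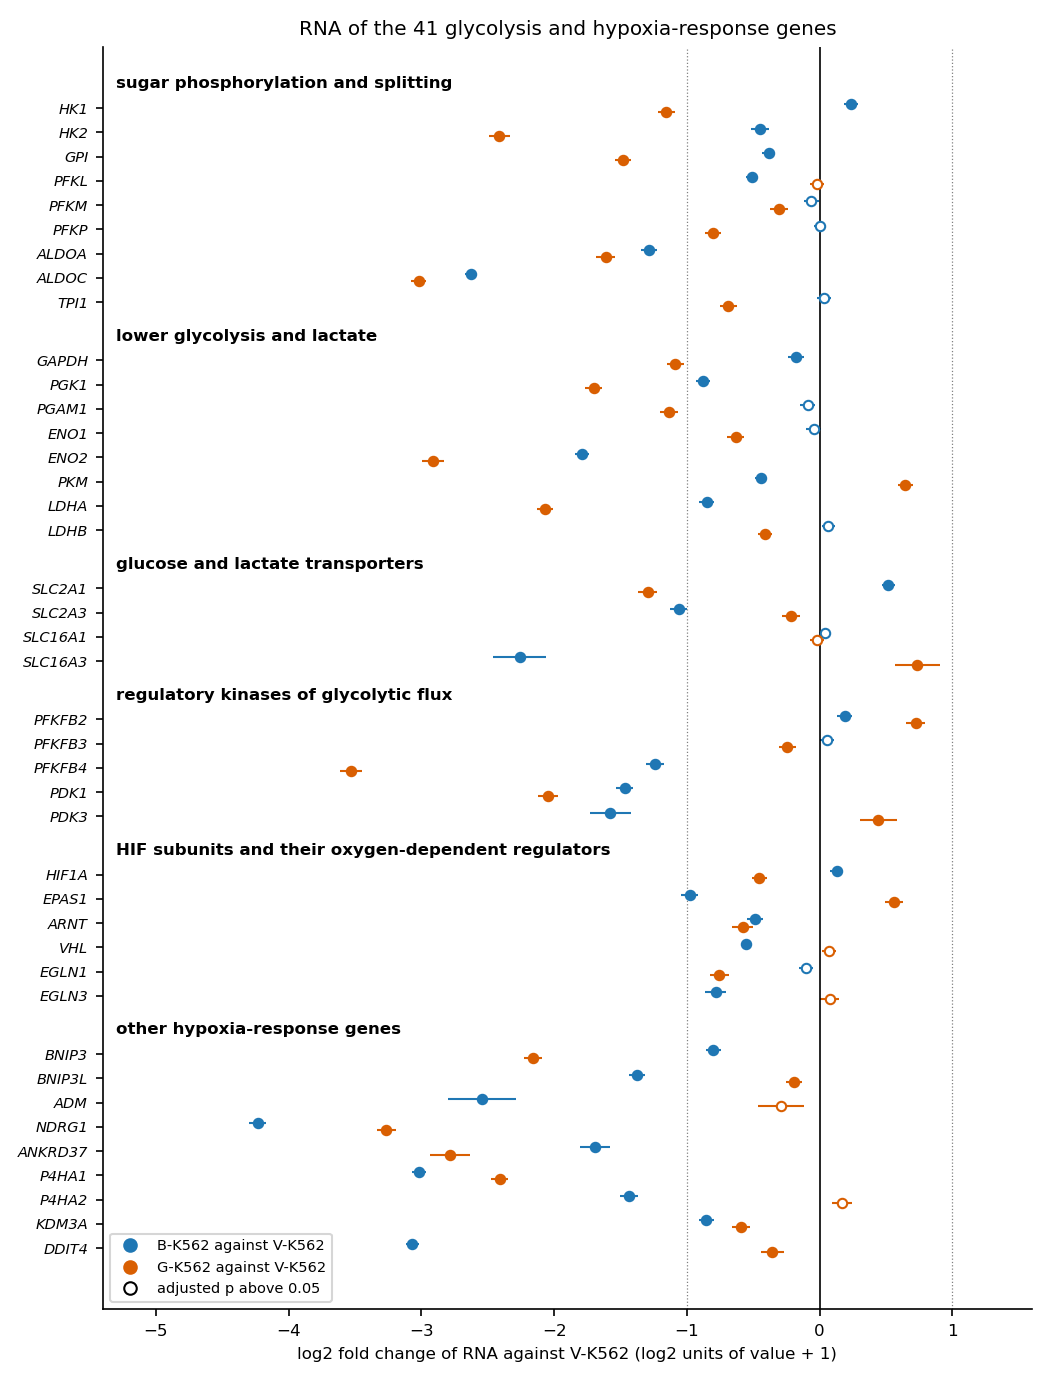
Log2 fold change of the RNA of each of the 41 members, grouped by role, in B-K562 (blue) and G-K562 cells (orange) against V-K562 cells. Points are limma estimates on log2(value + 1), bars are standard errors (n = 3 libraries per line), open points did not pass an adjusted p of 0.05, and dotted lines mark 2-fold changes. In the upper groups the orange points lie mostly to the left of the blue ones, and among the other hypoxia-response genes most blue points lie to the left.

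The lines differed in which members fell by at least 2-fold. Of the members lower by at least 2-fold, 8 were so in both lines (ALDOA, ALDOC, ENO2, PFKFB4, PDK1, NDRG1, ANKRD37 and P4HA1), 7 in B-K562 cells alone by this threshold (SLC2A3, SLC16A3, PDK3, BNIP3L, ADM, P4HA2 and DDIT4) and 9 in G-K562 cells alone (HK1, HK2, GPI, GAPDH, PGK1, PGAM1, LDHA, SLC2A1 and BNIP3). By adjusted p alone, 19 members were lower in both lines. Among them were HK2, GPI, GAPDH, PGK1, LDHA, BNIP3, SLC2A3, BNIP3L and DDIT4, which passed the 2-fold threshold in 1 line only. The split therefore depends in part on the threshold. The shares of all genes in these overlap classes were not computed, so the split is a description of the members only. Tested directly, G-K562 against B-K562 cells, 23 members were lower and 16 higher in G-K562 cells, where 40.5% of 15521 genes were lower and 38.1% higher. At least 2-fold, 10 members were lower and 8 higher, against 12.5% and 17.4% of all genes. By role, 15 of the 17 enzymes of glycolysis and lactate were lower in G-K562 cells than in the B-K562 line, while 7 of the 9 other hypoxia-response genes were higher. The group medians of this difference were -0.72 for sugar phosphorylation and splitting, -0.86 for lower glycolysis and lactate, and 0.97 for the other hypoxia-response genes.

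In the upper steps of glycolysis 8 of 9 members were lower in G-K562 cells, with a group median of -1.15, and 5 of 9 in B-K562 cells, with a median of -0.38. Hexokinases trap glucose in the cell by phosphorylation. HK2, the hexokinase induced in many tumours, was at 3426, 4260 and 3865 in V-K562, 2804, 2846 and 2774 in B-K562 and 743, 708 and 707 in G-K562 libraries. No library of a line overlapped another line, and HK2 fell 5.33-fold in G-K562 cells (log2 fold change -2.41, SE 0.08, adjusted p = 7.1e-10) against 1.37-fold in B-K562 cells (log2 fold change -0.45, SE 0.07, adjusted p = 3e-05). HK1, the broadly expressed hexokinase, was at 30275, 31355 and 28831 in V-K562, 34629, 35777 and 36109 in B-K562 and 14287, 12821 and 13561 in G-K562 libraries. HK1 therefore moved in opposite directions, up 1.18-fold in B-K562 cells (adjusted p = 0.0008) and down 2.23-fold in G-K562 cells (adjusted p = 2.8e-08). GPI, which isomerizes glucose 6-phosphate, was at 15934, 18172 and 16967 in V-K562, 13037, 13013 and 13028 in B-K562 and 6346, 5898 and 6035 in G-K562 libraries. It fell in both lines, 1.31-fold and 2.79-fold.

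Aldolases cut fructose 1,6-bisphosphate into trioses, and both aldolases on the list fell in both lines. ALDOA, the main aldolase of most cells, was at 109270, 124192 and 125115 in V-K562, 48997, 49590 and 48363 in B-K562 and 40266, 39208 and 37818 in G-K562 libraries, falls of 2.44-fold and 3.05-fold. ALDOC, the isoform best known from brain, was at 15045, 15571 and 15436 in V-K562, 2579, 2411 and 2475 in B-K562 and 1935, 1966 and 1779 in G-K562 libraries. Its fall was the largest of the group in each line, 6.17-fold in B-K562 cells (log2 fold change -2.62, SE 0.04, adjusted p = 6.1e-14) and 8.11-fold in G-K562 cells (log2 fold change -3.02, SE 0.06, adjusted p = 5.3e-11). The phosphofructokinases, which commit sugar to glycolysis, moved less. PFKL, the liver isoform, fell by 0.51 on the log2 scale in B-K562 cells, and its log2 fold change in the G-K562 line was -0.02 (adjusted p = 0.79). For the platelet isoform PFKP the values were the other way round, 0.00 in B-K562 cells (adjusted p = 0.97) and -0.80 in G-K562 cells (adjusted p = 3.3e-07). PFKM and TPI1 passed the test in G-K562 cells (log2 fold changes of -0.31 and -0.69) and not in B-K562 cells (-0.06 and 0.04).

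In lower glycolysis 7 of 8 members were lower in G-K562 cells and 5 of 8 in B-K562 cells, with group medians of -1.11 and -0.31. LDHA, the lactate dehydrogenase subunit that favours lactate formation, was at 46862, 53121 and 47952 in V-K562, 27965, 27388 and 26585 in B-K562 and 11714, 12039 and 11459 in G-K562 libraries. The lines formed 3 separate levels, 1.8-fold lower in B-K562 cells (adjusted p = 1.2e-08) and 4.2-fold lower in G-K562 cells (adjusted p = 4e-10). PGK1, which makes ATP from 1,3-bisphosphoglycerate, was at 27652, 28626 and 25364 in V-K562, 15189, 14689 and 14426 in B-K562 and 8292, 8733 and 8057 in G-K562 libraries. It followed the same order, 1.84-fold and 3.25-fold lower. PGAM1, the phosphoglycerate mutase, was at 1595, 1771 and 1679 in V-K562, 1630, 1545 and 1561 in B-K562 and 732, 780 and 788 in G-K562 libraries. PGAM1 fell 2.19-fold in G-K562 cells and did not pass the test in B-K562 cells (log2 fold change -0.09, adjusted p = 0.15), although it did without replicate 1 of V-K562 (adjusted p = 0.035).

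GAPDH, often used as a reference gene for RNA, was at 102386, 102624 and 93820 in V-K562, 89629, 89640 and 84609 in B-K562 and 47089, 47852 and 45680 in G-K562 libraries. It was 2.12-fold lower in G-K562 cells (log2 fold change -1.09, SE 0.06, adjusted p = 6.5e-08). In B-K562 cells the difference was 1.13-fold (adjusted p = 0.016) and did not pass without replicate 2 of V-K562 (adjusted p = 0.051) or replicate 3 of B-K562 (adjusted p = 0.082). ENO2, the enolase named for neurons, was at 3294, 3595 and 3617 in V-K562, 1004, 987 and 1042 in B-K562 and 473, 507 and 416 in G-K562 libraries, 3.46-fold and 7.53-fold lower. The common enolase ENO1 and the lactate dehydrogenase subunit LDHB fell in G-K562 cells only by the test (log2 fold changes of -0.63 and -0.41), with values of -0.04 and 0.07 in B-K562 cells. PKM, the pyruvate kinase of most adult tissues and tumours, was the exception in its group. Its values were 23325, 23809 and 22536 in V-K562, 17424, 17048 and 16806 in B-K562 and 35313, 36025 and 37628 in G-K562 libraries, so it fell 1.36-fold in B-K562 cells (adjusted p = 1e-06) and rose 1.56-fold in G-K562 cells (adjusted p = 1.5e-06). GAPDH, PGK1, ENO1, LDHA, TPI1, ALDOA and PGAM1 have processed pseudogenes, and as only uniquely mapped reads were counted, reads shared with a copy may be missing from these values.

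The transporters divided by line. SLC2A1, the glucose transporter GLUT1, was at 6435, 6943 and 7005 in V-K562, 9488, 9791 and 9891 in B-K562 and 2839, 2967 and 2512 in G-K562 libraries. It rose 1.43-fold in B-K562 cells (log2 fold change 0.52, SE 0.05, adjusted p = 2.7e-07) and fell 2.45-fold in G-K562 cells (log2 fold change -1.30, SE 0.07, adjusted p = 3e-08). The high-affinity glucose transporter SLC2A3 (GLUT3) showed another order, with 7157, 7911 and 8010 in V-K562, 3476, 3553 and 4037 in B-K562 and 7037, 6161 and 6692 in G-K562 libraries. SLC2A3 fell 2.09-fold in B-K562 cells. In G-K562 cells the difference was 1.16-fold (adjusted p = 0.014) and did not pass without replicate 2 (adjusted p = 0.063) or replicate 3 of V-K562 (adjusted p = 0.053), and reads that SLC2A3 shares with its near copy SLC2A14 are uncertain.

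Lactate leaves cells through the monocarboxylate transporters. SLC16A1 (MCT1) was the only member that passed the test in neither line, with log2 fold changes of 0.04 in B-K562 cells (SE 0.05, adjusted p = 0.41) and -0.02 in G-K562 cells (SE 0.05, adjusted p = 0.79). SLC16A3 (MCT4), the exporter typical of glycolytic tissue, was expressed at a low level, with values of 205, 159 and 122 in V-K562, 27, 31 and 40 in B-K562 and 298, 257 and 242 in G-K562 libraries. The 3 lines did not overlap, and SLC16A3 fell 4.79-fold in B-K562 cells (log2 fold change -2.26, SE 0.20, adjusted p = 2e-07) and rose 1.67-fold in G-K562 cells (log2 fold change 0.74, SE 0.17, adjusted p = 0.0023). Between the BASP1 lines its difference was the largest of any member, 8.01-fold.

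Kinases of the PFKFB and PDK families set how much sugar flows to pyruvate and on to the mitochondria. The former make or remove fructose 2,6-bisphosphate, the activator of phosphofructokinase, and the latter switch off pyruvate dehydrogenase. PFKFB4 was at 2693, 3054 and 2551 in V-K562, 1190, 1116 and 1197 in B-K562 and 246, 240 and 228 in G-K562 libraries. Its 11.5-fold fall in G-K562 cells was the largest of all members there (log2 fold change -3.53, SE 0.08, adjusted p = 8e-11), and it fell 2.36-fold in B-K562 cells. PFKFB2, by contrast, was the only member higher in both lines, by 0.19 on the log2 scale in B-K562 cells (adjusted p = 0.01) and 0.72 in G-K562 cells (adjusted p = 2.8e-06), and its rise in B-K562 cells did not pass without replicate 3 of that line (adjusted p = 0.06). PFKFB3 had log2 fold changes of 0.06 (adjusted p = 0.33) and -0.24 (adjusted p = 0.0047).

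PDK1 was at 2741, 3016 and 2511 in V-K562, 987, 981 and 1011 in B-K562 and 690, 633 and 672 in G-K562 libraries, so both lines were lower, 2.77-fold and 4.13-fold. PDK3, at 191, 224 and 201 in V-K562, 53, 72 and 82 in B-K562 and 334, 228 and 285 in G-K562 libraries, did not follow PDK1. It fell 2.98-fold in B-K562 cells (adjusted p = 6e-07) and was 1.36-fold higher in G-K562 cells (adjusted p = 0.013), the latter not passing without replicate 1 of G-K562 (adjusted p = 0.069).

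No HIF subunit or regulator changed by 2-fold against V-K562 cells. HIF1A was at 1756, 1778 and 1760 in V-K562, 1891, 1900 and 1998 in B-K562 and 1310, 1302 and 1256 in G-K562 libraries. It fell 1.37-fold in G-K562 cells (adjusted p = 2.8e-05), and its 1.09-fold difference in B-K562 cells (adjusted p = 0.027) did not pass without replicate 2 (adjusted p = 0.06) or replicate 3 of B-K562 (adjusted p = 0.14). EPAS1 went the other way, at 1830, 1762 and 2081 in V-K562, 907, 980 and 984 in B-K562 and 2845, 2663 and 2840 in G-K562 libraries. EPAS1 fell 1.97-fold in B-K562 cells (log2 fold change -0.98, SE 0.07, adjusted p = 1.3e-08) and rose 1.47-fold in G-K562 cells (log2 fold change 0.56, SE 0.07, adjusted p = 2.8e-05). ARNT, the partner of both alpha subunits, was at 3160, 3671 and 3717 in V-K562, 2482, 2436 and 2589 in B-K562 and 2414, 2154 and 2489 in G-K562 libraries. It fell in both lines, 1.40-fold and 1.49-fold, and the BASP1 lines did not differ by the test (adjusted p = 0.24).

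VHL was at 8702, 8429 and 8436 in V-K562, 5881, 5728 and 5840 in B-K562 and 9267, 8482 and 9095 in G-K562 libraries. It fell 1.47-fold in B-K562 cells, and its log2 fold change in the G-K562 line was 0.07 (adjusted p = 0.28). EGLN1 (PHD2), the main prolyl hydroxylase acting on HIF1A, was at 1397, 1486 and 1348 in V-K562, 1338, 1309 and 1295 in B-K562 and 834, 887 and 784 in G-K562 libraries. It fell 1.69-fold in G-K562 cells and had a log2 fold change of -0.10 in B-K562 cells (adjusted p = 0.11, or 0.034 without replicate 3 of V-K562). EGLN3 (PHD3), itself a HIF-responsive gene, was at 858, 977 and 919 in V-K562, 475, 578 and 550 in B-K562 and 991, 909 and 1000 in G-K562 libraries. EGLN3 fell 1.72-fold in B-K562 cells, and the libraries of G-K562 and V-K562 overlapped (log2 fold change 0.08, adjusted p = 0.39). Of this group 4 genes fell in B-K562 cells (EPAS1, ARNT, VHL and EGLN3), and 3 in G-K562 cells (HIF1A, ARNT and EGLN1).

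All 9 other hypoxia-response genes fell in B-K562 cells, 7 of them by at least 2-fold, with a group median of -1.69. In G-K562 cells 7 of 9 fell, 4 by at least 2-fold, with a median of -0.59. NDRG1, a stress-induced growth regulator, was at 3376, 3634 and 3640 in V-K562, 196, 181 and 186 in B-K562 and 342, 387 and 378 in G-K562 libraries. Its 18.8-fold fall was the largest of any member in B-K562 cells (log2 fold change -4.23, SE 0.06, adjusted p = 1.8e-14), and it fell 9.60-fold in G-K562 cells. P4HA1, a catalytic subunit of collagen prolyl 4-hydroxylase, was at 9332, 10487 and 9894 in V-K562, 1207, 1217 and 1236 in B-K562 and 1843, 1996 and 1753 in G-K562 libraries, 8.10-fold and 5.31-fold lower. Its sister subunit P4HA2 was at 2124, 2325 and 2598 in V-K562, 886, 839 and 875 in B-K562 and 2616, 2495 and 2788 in G-K562 libraries. P4HA2 fell 2.70-fold in B-K562 cells. Its G-K562 libraries overlapped those of V-K562, with a log2 fold change of 0.17 (adjusted p = 0.074, and 0.015 without replicate 3 of V-K562 or 0.038 without replicate 2 of G-K562).

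DDIT4 (REDD1), an inhibitor of mTORC1 signalling, was at 20959, 19781 and 19114 in V-K562, 2411, 2257 and 2468 in B-K562 and 16534, 13334 and 17101 in G-K562 libraries. It fell 8.38-fold in B-K562 cells (log2 fold change -3.07, SE 0.05, adjusted p = 5.8e-14) against 1.28-fold in G-K562 cells (log2 fold change -0.36, SE 0.09, adjusted p = 0.0034). The mitophagy receptors split between the lines. BNIP3 was at 2540, 2574 and 2328 in V-K562, 1501, 1355 and 1413 in B-K562 and 537, 592 and 535 in G-K562 libraries, 1.74-fold and 4.47-fold lower. BNIP3L was at 5088, 4974 and 4589 in V-K562, 2026, 1763 and 1869 in B-K562 and 4177, 4509 and 4137 in G-K562 libraries. BNIP3L fell 2.59-fold in B-K562 cells, and its 1.14-fold difference in G-K562 cells (adjusted p = 0.016) did not pass when replicate 1 or 2 of V-K562 or replicate 1 or 3 of G-K562 was left out (adjusted p = 0.053 to 0.066).

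ADM, the vasodilator peptide adrenomedullin, was expressed at a low level, with values of 82, 66 and 62 in V-K562, 9, 9 and 16 in B-K562 and 50, 65 and 56 in G-K562 libraries. It fell 5.82-fold in B-K562 cells on the log2(value + 1) scale, where counting error at such values is large, and did not pass the test in G-K562 cells (log2 fold change -0.29, adjusted p = 0.16). ANKRD37, a small ankyrin-repeat protein induced by HIF, was at 242, 267 and 246 in V-K562, 70, 85 and 76 in B-K562 and 42, 36 and 30 in G-K562 libraries. ANKRD37 fell 3.23-fold and 6.88-fold. KDM3A, a histone H3K9 demethylase, fell in both lines by less than 2-fold (log2 fold changes of -0.85 and -0.59). Of the hypoxia genes described elsewhere for these cells, VEGFA was at 16384, 16463 and 17868 in V-K562, 3430, 3489 and 3551 in B-K562 and 11435, 11885 and 11977 in G-K562 libraries. CA9 was at 472, 433 and 398 in V-K562 libraries and at 3 or less in each library of both BASP1 lines.

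**Figure D2:**
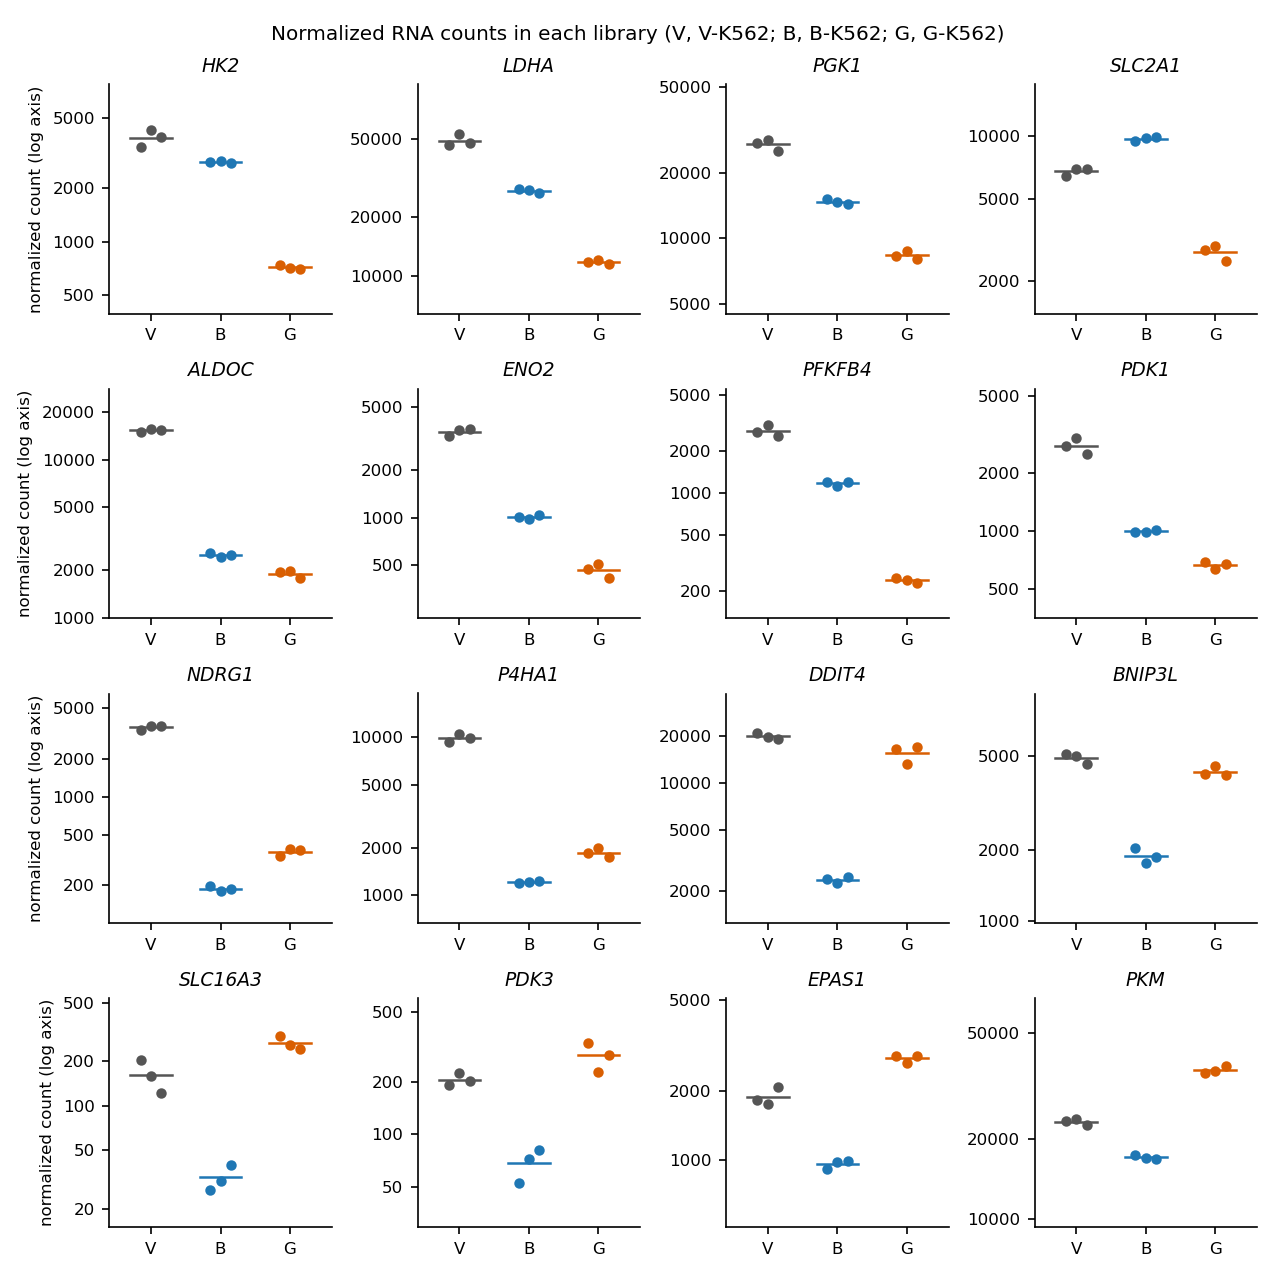
Normalized counts of 16 members in each RNA-seq library (points), with the lines side by side on a log axis, and a bar at the mean of each line's 3 libraries. In the first row G-K562 is the lowest line, in the second both BASP1 lines lie below V-K562, DDIT4 and BNIP3L are low mainly in B-K562, and the bottom row holds members that are lowest in B-K562 and highest in G-K562.

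Several members are paired isoforms or subunits, and the ratio within a library does not depend on the scaling between libraries. Ratios were taken per kilobase of exon for 10 pairs picked with the results known, and are given without a test. In V-K562 cells LDHB stood at 0.615 ± 0.042 of LDHA (SD, n = 3 libraries), in B-K562 cells at 1.16 ± 0.02 and in G-K562 cells at 1.94 ± 0.04. Per kilobase, the B subunit RNA was thus the minor partner in every V-K562 library and the major partner in every library of the BASP1 lines. In B-K562 cells this order rests on the division by exon length. Undivided, LDHB stood at 24216, 24679 and 23794 there, below LDHA at 27965, 27388 and 26585. LDHA reads shared with a pseudogene may also be missing, so the major partner in B-K562 cells is uncertain. EPAS1 over HIF1A was 0.898 ± 0.083 in V-K562, 0.416 ± 0.015 in B-K562 and 1.81 ± 0.09 in G-K562 cells. P4HA2 over P4HA1 was 0.202 ± 0.019, 0.604 ± 0.019 and 1.21 ± 0.14 in the same order, and ENO2 over ENO1 was 0.0490 ± 0.0034, 0.0146 ± 0.0006 and 0.0101 ± 0.0009. For SLC2A3 over SLC2A1 the BASP1 lines lay on opposite sides of V-K562 cells, at 0.353 ± 0.023 in B-K562 and 2.24 ± 0.28 in G-K562 cells around 1.055 ± 0.016. In V-K562 cells the members themselves spanned from 52648 normalized counts per kilobase for GAPDH, 35926 for ALDOA and 29539 for ENO1 down to 36.8 for SLC16A3 and 15.6 for PDK3.

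**Figure D3:**
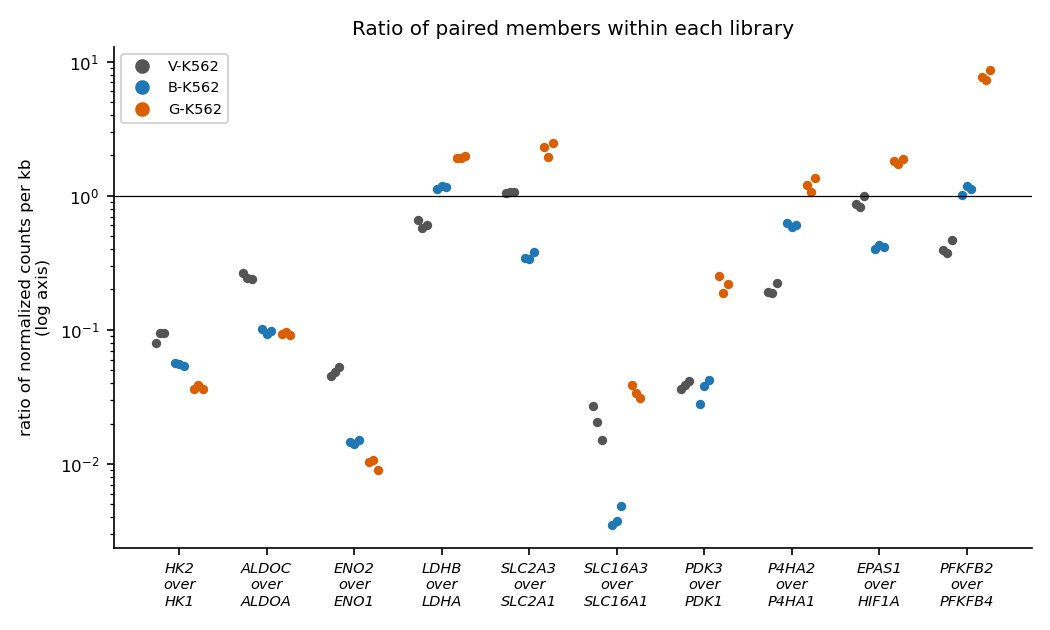
Ratio of the normalized counts per kilobase of exon of paired members within each RNA-seq library (points, n = 3 per line), on a log axis with a line at 1. LDHB over LDHA and P4HA2 over P4HA1 are lowest in V-K562 and highest in G-K562 libraries, while ENO2 over ENO1 and HK2 over HK1 run the other way.

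Other genes of these pathways, listed by function but with earlier results of these data known, were less one-sided for glycolysis in B-K562 cells. For each list below, the shares over all genes tested were 38.6% higher and 37.2% lower in B-K562 cells. In G-K562 cells they were 33.5% and 33.3%. Of 22 tested genes among 32 further genes of glycolysis and pyruvate use, 11 were higher and 7 lower in B-K562 cells, and 5 higher and 14 lower in G-K562 cells. PKLR, the pyruvate kinase of liver and red cells, had both the largest rise in B-K562 cells (log2 fold change 1.27) and the largest fall in G-K562 cells (log2 fold change -3.57), at 3402, 3916 and 3232 in V-K562, 8226, 8720 and 8441 in B-K562 and 309, 301 and 271 in G-K562 libraries. PKM and PKLR, the pyruvate kinase genes, therefore moved in opposite directions in each line. PDK4 showed the largest fall of this list in B-K562 cells (log2 fold change -3.17) and TIGAR, which lowers fructose 2,6-bisphosphate, the largest rise in G-K562 cells (log2 fold change 2.54). Of the 19 pentose phosphate and glycogen genes, 6 rose and 10 fell of 17 tested in B-K562 cells, and 6 rose and 8 fell of 18 tested in G-K562 cells. The extremes were PYGL (-2.23) and RPE (0.75) in B-K562 cells and PYGM (-1.02) and H6PD (1.03) in G-K562 cells. Of 44 other hypoxia and HIF-pathway genes, 7 rose and 21 fell of 34 tested in B-K562 cells, and 10 rose and 20 fell of 35 tested in G-K562 cells. CA9 had the largest fall of that list in each line, CITED2 the largest rise in B-K562 cells (log2 fold change 0.98) and BHLHE41, a repressor of the clock that HIF induces, the largest rise in G-K562 cells (log2 fold change 5.41).

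HIF binds DNA at a short core, of which the form ACGTG and the alternative form GCGTG were searched on both strands. The first form lies on both strands of CACGTG, the E-box that MYC and USF factors also bind and that was found in 5 of the member promoters (14.3%, beside 7.43% of all). Promoters of 300 bases, from 250 before to 50 after the start, came from RefSeq (GRCh38.p14), which matched 35 of the 41 members. BNIP3L, NDRG1, PFKFB2, SLC2A3, SLC16A1 and VHL are named only. ACGTG was present in 14 of the 35 (40.0%), beside 21.6% of all 27305 promoters, and either core in 25 (71.4%), beside 48.4%. Of the 8 members lower by at least 2-fold in both lines, 7 had a promoter, 5 of them with the first form of the core (71.4%). The second form was in 2 of these 7 (28.6%), beside 51.4% of the member promoters and 36.3% of all. The letters GCGTGGG, which WT1 and EGR proteins bind and which contains the second form, was in 3 of the 35 (8.57%), beside 6.74%. A match describes the letters of the window and not a bound site.

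Printed here are the last 200 bases before the RefSeq start, in the direction of transcription, with the core in capitals. The first 5 are those of the 8 members lower by at least 2-fold in both lines whose window overlaps an ATAC-seq region at the start, and each holds a core. PDK1, also among the 8, is not printed because its window does not overlap such a region. The PDK1 promoter held neither form of the core. HK2 and LDHA, at least 2-fold lower in G-K562 cells, were added after their values were seen, and other members lower in both lines are not printed, among them ARNT, whose promoter held neither form. The windows are ALDOC at chr17:28576896-28577095 (minus strand), ENO2 at chr12:6914380-6914579 (plus), PFKFB4 at chr3:48556804-48557003 (minus), ANKRD37 at chr4:185396641-185396840 (plus), P4HA1 at chr10:73096867-73097066 (minus), HK2 at chr2:74833927-74834126 (plus) and LDHA at chr11:18394363-18394562 (plus).
ALDOC: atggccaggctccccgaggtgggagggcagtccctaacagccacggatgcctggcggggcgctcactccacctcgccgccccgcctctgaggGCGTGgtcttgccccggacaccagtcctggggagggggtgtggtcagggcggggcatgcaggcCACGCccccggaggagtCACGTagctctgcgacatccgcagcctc
ENO2: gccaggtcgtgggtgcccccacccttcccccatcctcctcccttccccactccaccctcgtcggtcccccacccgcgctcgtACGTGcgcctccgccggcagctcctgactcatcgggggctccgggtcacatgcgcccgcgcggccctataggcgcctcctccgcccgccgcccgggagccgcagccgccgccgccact
PFKFB4: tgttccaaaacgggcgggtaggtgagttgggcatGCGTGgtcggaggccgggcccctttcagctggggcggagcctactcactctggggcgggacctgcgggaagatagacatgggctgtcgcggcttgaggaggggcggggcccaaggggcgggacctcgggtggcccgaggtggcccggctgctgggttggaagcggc
ANKRD37: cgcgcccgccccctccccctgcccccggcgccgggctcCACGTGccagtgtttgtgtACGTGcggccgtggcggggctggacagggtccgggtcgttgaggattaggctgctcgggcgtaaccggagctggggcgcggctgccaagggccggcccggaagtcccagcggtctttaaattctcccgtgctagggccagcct
P4HA1: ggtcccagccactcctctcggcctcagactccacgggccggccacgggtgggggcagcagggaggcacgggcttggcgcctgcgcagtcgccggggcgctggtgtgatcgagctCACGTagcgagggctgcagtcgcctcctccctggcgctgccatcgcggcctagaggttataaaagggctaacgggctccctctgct
HK2: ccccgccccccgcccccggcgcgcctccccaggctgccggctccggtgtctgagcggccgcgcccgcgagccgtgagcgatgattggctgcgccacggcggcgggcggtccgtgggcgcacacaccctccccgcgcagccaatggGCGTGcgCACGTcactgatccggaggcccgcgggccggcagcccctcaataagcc
LDHA: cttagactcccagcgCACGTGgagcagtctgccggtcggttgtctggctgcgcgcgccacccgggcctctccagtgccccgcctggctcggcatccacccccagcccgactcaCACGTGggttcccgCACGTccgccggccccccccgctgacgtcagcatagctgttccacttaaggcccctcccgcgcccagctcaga
Counting each strand, the core was found 3 times in ALDOC and in ANKRD37, 2 times in HK2, 5 times in LDHA and 1 time each in ENO2, PFKFB4 and P4HA1.

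ATAC-seq marks open chromatin by where a transposase can insert. The authors called peaks in each library, 47111 to 55570 per library, after sampling all libraries to equal tags, and deposited the tag pileup at each summit. Overlapping peaks were merged into 85549 regions, of which 175 lay within 5 kb of a member gene, between 1 and 12 per member with a median of 3. Pileups below are as deposited. For the tests they were brought to a common scale with a trimmed mean of the regions that all libraries shared, and a library without a peak was set to a floor of 17 tags, so that a fold change against such libraries depends on the floor.

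In B-K562 cells 17 of 128 tested member regions were more accessible and 19 less accessible than in V-K562 cells, where 8.53% and 16.5% of 52204 regions were. At least 2-fold, 6 were more and 8 less accessible, against 1.51% and 6.11%. In G-K562 cells 39 of 127 were more and 26 less accessible, where 15.9% and 26.0% of 54213 regions were, and at least 2-fold 8 and 12, against 2.84% and 13.1%. Between the BASP1 lines 21 of 141 were more accessible in G-K562 and 24 less, where 12.2% and 15.5% of 60181 regions were, and at least 2-fold 7 and 14, against 4.21% and 8.47%. The balance depended on scaling. With equal tags as the only normalization 29 member regions were more and 9 less accessible in B-K562, 62 and 12 in G-K562, and 43 and 18 between the BASP1 lines. Within bins of GC content the counts were 13 and 10, 20 and 22, and 21 and 24. None of the 20 tested regions with a summit within 100 bp of a member's start changed by 2-fold in any of the 3 comparisons. The HK2 start region, with its summit 111 bp before the start, lies just outside this cut and rose by 1.21 on the log2 scale in B-K562 cells. The same share over the starts of all genes was not computed, so the count describes the members only.

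Few start regions lost accessibility where RNA fell. Of 40 members with a region over or within 1 kb of the start (all but SLC16A3), 37 could be tested in B-K562 cells, where 8 were more accessible and 1 less, and 38 in G-K562 cells, where 19 were more accessible and 0 less. Of the tested members with an RNA estimate below 0, the start region had an estimate above 0 for 23 of 29 in B-K562 and for 29 of 31 in G-K562 cells. The same shares over the start regions of all genes were not computed. These counts therefore do not show whether the members differ from start regions in general. This direction depended on scaling, and with libraries scaled within bins of GC content the same counts were 13 of 29 and 18 of 31. The median log2 fold change over start regions was 0.19 for B-K562 and 0.33 for G-K562, against -0.01 and 0.07 within GC bins, where 4 were more accessible and 1 less (PKM) in B-K562 and 5 more and 3 less (TPI1, ENO1 and ANKRD37) in G-K562 cells.

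The members with the largest RNA falls in B-K562 cells showed little at their starts. P4HA1, whose RNA fell by 3.02 on the log2 scale there, had summit pileups at its start of 255, 269 and 250 in V-K562 and 274, 330 and 262 in B-K562 libraries (log2 fold change 0.00, adjusted p = 0.99). For NDRG1 the pileups were 89, 106 and 69 in V-K562, 93, 102 and 109 in B-K562 and 108, 107 and 150 in G-K562 libraries, and neither line passed the test (log2 fold changes of 0.07 and 0.12, adjusted p = 0.78 and 0.64). SLC2A3 was the member whose start was called less accessible in B-K562 cells, with peaks of 23, 27 and 30 in V-K562 and a single B-K562 peak of 24 (log2 fold change -0.56 with the floor, adjusted p = 0.046), but this call held under only 2 of 11 alternatives. It was lost within GC bins (adjusted p = 0.14), with equal tags as the only normalization (0.10), with the lower floor (0.06), and without any single V-K562 library or replicate 2 or 3 of B-K562 (0.053 to 0.16).

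HK2, PGK1 and BNIP3 had start regions that became more accessible while their RNA fell. HK2 pileups were 36, 44 and 41 in V-K562, 95, 109 and 112 in B-K562 and 75, 103 and 119 in G-K562 libraries, with log2 fold changes of 1.21 and 0.91, the latter 0.58 within GC bins. PGK1 pileups were 133, 139 and 126 in V-K562, 247, 202 and 213 in B-K562 and 294, 276 and 356 in G-K562 libraries, with log2 fold changes of 0.57 (adjusted p = 0.0051) and 0.85 (adjusted p = 0.00067). BNIP3 pileups were 52, 53 and 55 in V-K562, 99, 119 and 102 in B-K562 and 102, 96 and 87 in G-K562 libraries. For BNIP3 the log2 fold changes were 0.83 (adjusted p = 0.0045) and 0.47 (adjusted p = 0.02), and the latter was 0.08 within GC bins (adjusted p = 0.7).

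Of the 4 members whose RNA rose in B-K562 cells, SLC2A1 alone had a start region that passed the test there. It stood at 124, 156 and 145 in V-K562, 273, 248 and 277 in B-K562 and 200, 199 and 214 in G-K562 libraries. Its log2 fold change was 0.76 for B-K562 (adjusted p = 0.0027) and 0.18 for G-K562 (adjusted p = 0.17, or 0.0049 with equal tags as the only normalization). PFKFB2, whose RNA rose most clearly in G-K562 cells, had start pileups of 187, 186 and 207 in V-K562, 224, 225 and 234 in B-K562 and 344, 327 and 358 in G-K562 libraries, and was more accessible in the latter line (log2 fold change 0.47, adjusted p = 0.002). ENO2 and PFKP had a start peak in 1 G-K562 library each and could not be tested, and ADM could be tested in G-K562 cells only.

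**Figure D4:**
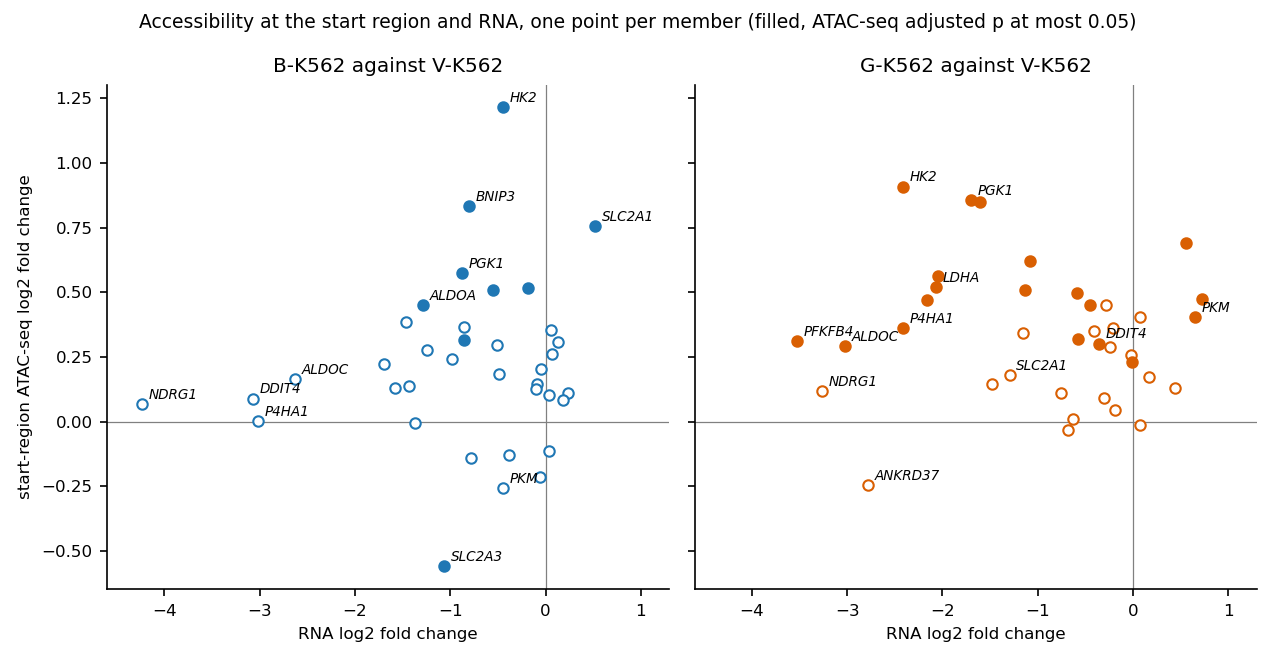
Log2 fold change of the ATAC-seq start region (vertical) against that of the RNA (horizontal) for each member with a tested start region, in B-K562 (left, 37 members) and G-K562 cells (right, 38 members) against V-K562 cells. Filled points passed an adjusted p of 0.05 for ATAC-seq, and under this scaling most points with lower RNA lie above 0 on the vertical axis (23 of 29 and 29 of 31, against 13 and 18 within GC bins).

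The 2-fold changes were spread over introns and over regions upstream and downstream. Upstream here means before the start of the canonical transcript, and some such regions, as in HK1 and PFKFB2, lie inside the annotated gene. In B-K562 cells 6 of 42 tested intronic regions changed by at least 2-fold, 7 of 40 upstream, among them the HK2 region 111 bp before the start, and 1 of 20 downstream. In G-K562 cells the counts were 11 of 41 intronic, 4 of 40 upstream and 4 of 20 downstream regions, and 1 of 3 in untranslated exons. Over all regions tested, 1.51% were more and 6.11% less accessible by at least 2-fold in B-K562 cells, and 2.84% and 13.1% in G-K562 cells. The shares of all regions within each class were not computed, and no difference between these classes was tested. A region of PFKFB4 in an intron, 1.41 kb past the start (chr3:48555207-48555593), had pileups of 113, 84 and 126 in B-K562 libraries, peaks in 2 V-K562 libraries (57 and 72) and no peak in G-K562 cells. It was the largest fall of a member region between G-K562 and B-K562 cells (log2 fold change -2.57 with the floor, adjusted p = 0.0032).

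SLC16A3 and DDIT4, whose RNA was lowest in B-K562 cells, each had a nearby region that was also lowest there. The region in an intron of SLC16A3, 3.05 kb past the start (chr17:82231726-82232357), had pileups of 92, 72 and 75 in V-K562 and 117, 106 and 118 in G-K562 libraries, and a peak in only 1 B-K562 library, of 50. With the floor, its log2 fold change was -1.75 for B-K562 (SE 0.38, adjusted p = 0.014) and 0.17 for G-K562 (adjusted p = 0.34, or 0.013 with equal tags as the only normalization). DDIT4 had a region 1.06 kb upstream (chr10:72272621-72273225), picked after its values were seen. It held a peak in all libraries, with pileups of 262, 238 and 223 in V-K562, 155, 112 and 134 in B-K562 and 421, 337 and 396 in G-K562 libraries. Accessibility there fell by 1.01 on the log2 scale in B-K562 cells (SE 0.12, adjusted p = 0.0025), while DDIT4's start region stood at 370, 395 and 345 in V-K562 and 464, 443 and 406 in B-K562 libraries (log2 fold change 0.09, adjusted p = 0.43). In G-K562 cells the upstream region had a log2 fold change of 0.32 (adjusted p = 0.035, and 0.066 to 0.11 without replicate 2 or 3 of V-K562 or replicate 1 or 3 of G-K562, and 0.19 with scaling in GC bins).

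In G-K562 cells the largest losses lay in HK2, SLC2A1 and PDK1, and RNA of all 3 fell there, as did that of 30 of the 41 members. An intronic region of HK2, 28.3 kb past the start (chr2:74862168-74862818), had pileups of 78, 76 and 87 in V-K562 and 91, 72 and 84 in B-K562 libraries, and in G-K562 cells a peak in 1 library only, of 20. With the floor, its log2 fold change was -2.33 for G-K562 (SE 0.16, adjusted p = 0.00019), and it was -0.12 for B-K562 (adjusted p = 0.52). In SLC2A1 an intronic region 6.10 kb past the start (chr1:42952376-42953097) had pileups of 70, 68 and 77 in V-K562, 82, 83 and 77 in B-K562 and a single G-K562 peak of 23 (log2 fold change -2.11 with the floor, adjusted p = 0.00024). A further pair of SLC2A1 regions, picked after their values were seen, was also lowest in G-K562 cells. The region 4.88 kb upstream (chr1:42963090-42964015), which overlaps the antisense gene SLC2A1-AS1, was at 228, 224 and 161 in V-K562, 294, 255 and 254 in B-K562 and 93, 100 and 69 in G-K562 libraries (log2 fold change -1.57, adjusted p = 0.00093). The intronic region 22.4 kb past the start (chr1:42936201-42936981) was at 194, 197 and 178 in V-K562, 253, 314 and 271 in B-K562 and 132, 97 and 106 in G-K562 libraries (log2 fold change -1.12, adjusted p = 0.00055). PDK1 had a region in its last, untranslated exon, 44.8 kb past the start (chr2:172600410-172601101), at 53, 85 and 39 in V-K562, 98, 116 and 93 in B-K562 and a single G-K562 peak of 21 (log2 fold change -1.80 with the floor in G-K562 cells, adjusted p = 0.0021). In B-K562 cells this region did not follow RNA. Its pileups lay above those of V-K562, a difference whose call depended on the processing, while PDK1 RNA fell 2.77-fold.

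Other regions were gained. In B-K562 cells SLC2A1 gained an intronic region 9.24 kb past the start (chr1:42949438-42949854), at 69, 93 and 75 tags, with no peak in V-K562 and a single G-K562 peak of 36 (log2 fold change 2.06 with the floor, adjusted p = 0.0015). HK2 had regions of opposite change on either side of its start. A region 1.87 kb upstream (chr2:74831973-74832466) held peaks of 40, 51 and 41 in V-K562 libraries and none in either BASP1 line, and a region 1.26 kb past the start (chr2:74835058-74835523) held peaks of 53, 46 and 51 in B-K562 libraries, none in V-K562 and 31 in 1 G-K562 library. With the floor the first had log2 fold changes of -1.38 and -1.48 in the BASP1 lines (adjusted p = 0.0028 and 0.00059), and the second of 1.42 in B-K562 cells (adjusted p = 0.0025). A region of HK1 10.4 kb upstream of its canonical start (chr10:69308296-69308848) lay inside the gene's annotated span. It had peaks of 65, 72 and 71 in B-K562 libraries, 49 in 1 V-K562 library and none in G-K562 cells (log2 fold change 1.37 with the floor, adjusted p = 0.039). That call was lost without replicate 1 or 2 of V-K562 or any B-K562 replicate (adjusted p = 0.066 to 0.11) and with a lower floor (adjusted p = 0.052). An intronic region of HK1, 15.6 kb past the start (chr10:69334114-69334812) and picked after its values were seen, had a peak in every library, at 129, 140 and 129 in V-K562, 292, 255 and 213 in B-K562 and 122, 105 and 126 in G-K562 libraries. It moved as HK1 RNA did, with log2 fold changes of 0.77 for B-K562 (adjusted p = 0.0037) and -0.52 for G-K562 (adjusted p = 0.0042). In G-K562 cells an intronic region of PKM, 0.726 kb past the start (chr15:72230320-72230605), had peaks of 96, 84 and 86. A region 18.1 kb upstream of the canonical PFKFB2 start (chr1:207034986-207035345), inside that gene's annotated span, had peaks of 90, 69 and 80. Neither region had a peak in any V-K562 or B-K562 library (log2 fold changes of 2.13 and 1.98 with the floor, adjusted p = 0.00022 and 0.00029), and RNA of both genes rose in G-K562 cells. The third largest gain in G-K562 cells lay in SLC2A1, 0.564 kb past the start (chr1:42958043-42958495), while SLC2A1 RNA fell. It had peaks of 43, 60 and 88 in G-K562 libraries, of 68 and 69 in 2 B-K562 libraries and none in V-K562 (log2 fold change 1.61 with the floor, adjusted p = 0.0025).

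**Figure D5:**
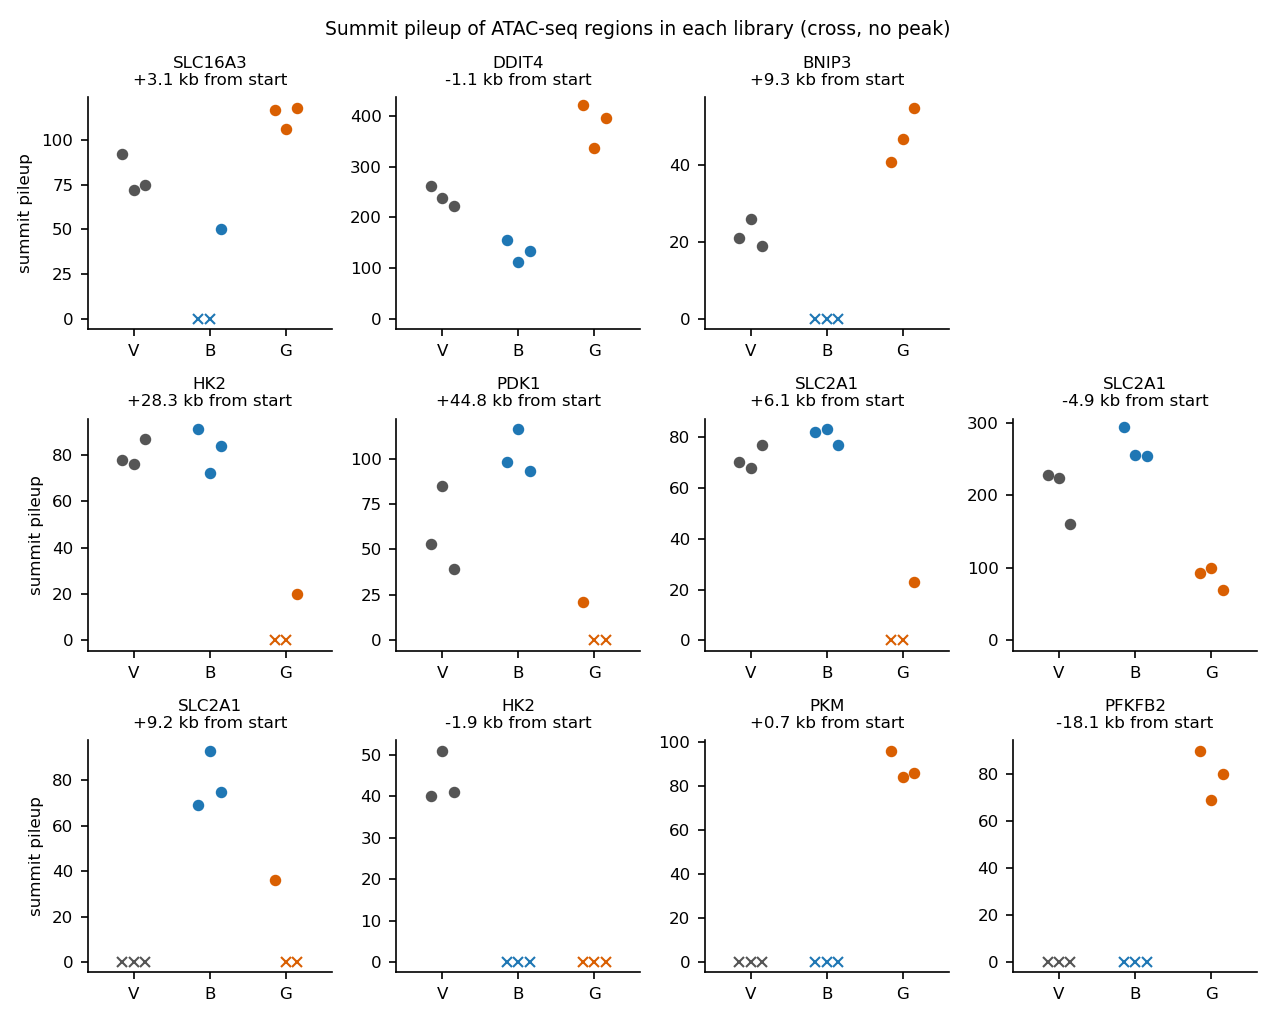
Deposited summit pileup of 11 ATAC-seq regions near members in each library of the 3 lines, with the distance of the summit from the start, and crosses at 0 for a library without a called peak. BNIP3, picked like DDIT4 after its values were seen, is among them. In the top row B-K562 libraries are lowest, in the middle row G-K562 libraries, and the bottom row shows regions with peaks mainly in a single line.

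Printed next are 201 bases centred on the summit of 4 of these regions, from the GRCh38 genome in the direction of the gene, chosen because accessibility there was lower in the line where the gene's RNA was lowest. They were picked for that match and do not stand for the member regions in general. Both forms of the HIF core, the motif AGATAA of the erythroid factor GATA1 and the motif TGACTCA that AP-1 binds were searched on both strands, and are in capitals where found. The windows are DDIT4 at chr10:72272764-72272964 (plus), SLC16A3 at chr17:82231996-82232196 (plus), HK2 at chr2:74862364-74862564 (plus) and SLC2A1 at chr1:42952668-42952868 (minus).
DDIT4: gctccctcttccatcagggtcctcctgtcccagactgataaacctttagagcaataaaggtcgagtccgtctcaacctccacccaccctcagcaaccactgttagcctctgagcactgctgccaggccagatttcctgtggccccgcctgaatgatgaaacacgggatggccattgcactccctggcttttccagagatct
SLC16A3: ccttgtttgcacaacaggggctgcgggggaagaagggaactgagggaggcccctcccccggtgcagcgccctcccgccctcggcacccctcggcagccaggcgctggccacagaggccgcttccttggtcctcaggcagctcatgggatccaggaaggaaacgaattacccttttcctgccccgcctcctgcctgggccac
HK2: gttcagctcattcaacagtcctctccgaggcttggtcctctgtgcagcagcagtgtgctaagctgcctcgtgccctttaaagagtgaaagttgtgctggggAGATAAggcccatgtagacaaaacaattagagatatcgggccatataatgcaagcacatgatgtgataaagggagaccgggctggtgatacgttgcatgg
SLC2A1: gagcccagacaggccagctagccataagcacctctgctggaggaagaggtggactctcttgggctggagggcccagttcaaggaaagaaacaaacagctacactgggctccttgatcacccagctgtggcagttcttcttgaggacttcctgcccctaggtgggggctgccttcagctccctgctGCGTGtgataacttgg
The windows of DDIT4 and SLC16A3, less accessible in B-K562 cells, held none of the 4 motifs as searched. For GATA1 only the letters AGATAA were searched. The near form TGATAA, which is in the windows of DDIT4, HK2 and SLC2A1, was not counted, so GATA sites in general were not assessed. Of the windows less accessible in G-K562 cells, that of HK2 held AGATAA at 1 place and that of SLC2A1 held the second form of the core at 1 place. Over all 85549 regions, either form of the core was in 32.3% of windows of this length, beside 38.3% of the 175 member regions. AGATAA was in 18.7% of all windows and 13.1% of those of members, and the AP-1 motif in 14.4% and 13.1%.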

How the data were processed

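The authors' processing notes name GRCh38, Subread, DESeq2 and MACS2. The authors counted unique, deduplicated RNA-seq reads on genes and deposited counts divided by DESeq2 size factors and rounded. These deposited values are treated as a score and not as raw counts. They were tested by limma-trend (limma 3.58.1, R 4.3.3) on log2(value + 1), for genes at 10 or more in at least 3 libraries, with Benjamini-Hochberg adjustment over all genes. The authors deposited ATAC-seq peaks per library, with summit and mean pileup as a signal after sampling to equal tags. Merged regions with a peak in at least 3 libraries were tested likewise, after trimmed-mean scaling (30% of log ratios, 5% of means) and a floor of 17 tags. Depth cannot be read from either kind of file. G-K562 and B-K562 were fitted with all 9 libraries, so values set across the tables rest on a factor of 1.02. The authors' own fold change and p-value columns were not used. Positions are GRCh38, and gene starts are those of canonical GENCODE transcripts. The coordinates of all 41 members overlapped their RefSeq GRCh38.p14 genes.

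The members, lists and pairs were chosen with earlier results of these data known. Every member changed at least 2-fold, the HIF subunits and regulators, and the most changed member of each group are given in every library. From each further list the largest rise and fall per line are named, and of the regions the start regions and the 3 largest rises and falls per comparison, with other regions marked. One of these regions is counted in the totals but not reported here. Scripts were tested on simulated data. Python 3.11.15 with pandas 2.3.3, matplotlib 3.10.9 and pysam 0.24.0 was used.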

Additional observations from a re-analysis of the deposited data

Results flagged for a closer look

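For 7 members the lines moved in opposite directions against V-K562 cells, each past an adjusted p of 0.05, and the lines also differed directly in limma (adjusted p of 0.05 or less, 3 libraries per line). The share of all genes that moved in opposite directions was not computed. The log2 difference, G-K562 minus B-K562, was 3.0 for SLC16A3, 2.02 for PDK3, 1.54 for EPAS1 and 1.09 for PKM, which were lowest in B-K562 cells. It was -1.81 for SLC2A1, -1.39 for HK1 and -0.58 for HIF1A, which were lowest in G-K562 cells. Against V-K562 cells, HIF1A did not pass in B-K562 without replicate 2 or 3 of that line, and PDK3 did not pass in G-K562 without replicate 1 of that line.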

How the results depend on the processing

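The RNA-seq counts of members lower or higher stayed within 1.5 times under the other filters, pseudocount, centring and limma without a trend. With 10 or more in every library, the members' median moved to -0.67 (B-K562) and -0.36 (G-K562 against B-K562), as fewer members were tested. Without 1 library it ranged from -0.80 to -0.70 in B-K562, and the members higher there from 2 to 4.

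ATAC-seq counts moved more. With equal tags only, 29 member regions were more and 9 less accessible in B-K562 (4 less at 2-fold), 62 and 12 in G-K562 (18 and 6 at 2-fold), and 43 more in G-K562 than B-K562 (13 at 2-fold). This scaling moved the median of all regions from -0.10 to 0.19 in G-K562. Within GC bins 10 were less accessible in B-K562 and 20 more in G-K562, and the start regions of ENO1 (-0.32), PFKFB4 (-0.025) and SLC16A1 (-0.033, and -0.039 with mean pileup) reversed sign in G-K562. With a peak in every library, which tests fewer regions, counts fell to 1 more and 2 less at 2-fold in B-K562, 17 less, with 2 more and 5 less at 2-fold, in G-K562, and 13 more and 13 less, 1 and 4 at 2-fold, between the lines. Mean pileup left 5 less at 2-fold in B-K562, and the lower floor gave 12 more at 2-fold between the lines. Leaving out 1 library gave 7 to 16 more and 6 to 13 less accessible in B-K562 (2 to 7 and 2 to 7 at 2-fold), 22 to 34 more and 17 to 24 less in G-K562 (3 to 8 more at 2-fold), and 12 to 21 more between the lines. The cause was not tested.

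Of the single regions named, the losses upstream of DDIT4 and in SLC16A3 in B-K562, and in HK2 (28.3 kb), SLC2A1 (6.10 kb) and PDK1 in G-K562, kept their call under each alternative that tested them, with log2 fold changes of -2.22 to -1.43 for SLC16A3, -1.10 to -0.85 for DDIT4, -2.81 to -1.86 for HK2, -2.58 to -1.87 for SLC2A1 and -2.27 to -1.42 for PDK1.

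In RNA-seq, replicate numbers did not pair the samples: same-numbered deviations correlated at -0.26 to 0.38, beside -0.45 to 0.53 for other pairs. In ATAC-seq same-numbered deviations correlated at 0.01 to 0.12 (median 0.04), beside -0.08 to 0.05 (median -0.04) for other pairs. Same-numbered ATAC-seq libraries were thus slightly more alike. A replicate block gave 28 members lower in B-K562 and 30 in G-K562, and 6 instead of 5 higher in G-K562, where P4HA2 then passed (adjusted p = 0.049). Among start regions the block ended the calls of SLC2A3 in B-K562 (adjusted p = 0.079), SLC16A1 in G-K562 (0.055) and BNIP3 between the lines (0.06), and HK1 passed in G-K562 (0.032). It moved no count of members or member regions by over 1.5 times.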
